A study of Mus musculus with 21 samples.

Results

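A set of 32 macrophage and myeloid genes was followed across 21 arrays of mouse prostate RNA. The genes were taken by symbol: every probe that the platform annotation gives to a listed gene was read, and a probe was kept in an experiment if 3 or more of its arrays had a detection p-value below 0.05. Of the 32 genes, 31 have an annotated probe (54 probes), and the expression of Cd68 was not analysed here. The rule left 25 genes (35 probes) of 15406 genes tested in the first experiment, 24 genes (32 probes) of 15088 in the second, and 24 genes in both. Itgb2 was kept in the first experiment only, and Fcer1g, Itgam, Ptprc, Cybb, Ncf1 and Msr1 in neither. Counts below are therefore counts over the kept genes and not over the whole set.

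All mice were FVB/N males of 8 to 12 weeks, heterozygous for a luciferase transgene under a thymidine kinase promoter with androgen response elements, and every control carried it too. The genistein experiment crossed castration with genistein: castrated and intact mice were each injected with genistein or its vehicle alone, with 3 arrays for every combination. Genistein, a soy isoflavone that binds estrogen receptors, was injected under the skin at 300 µg per mouse per day for 5 days in mineral oil with 2% dimethylsulfoxide, from day 4 after castration. In the estradiol experiment intact males received vehicle (5 arrays; mineral oil with 0.5% ethanol) or 17β-estradiol (4 arrays) at 0.25 µg per mouse per day for 4 days. Prostates were taken 24 h after the last injection. The labels state neither whether an array holds RNA of 1 animal or a pool nor which prostate lobes were taken, so p-values measure only the spread among the arrays, some of which may be technical.

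Macrophages are tissue phagocytes that engulf dying cells and debris. They depend on signals through the CSF1 receptor, sense immune complexes through Fc receptors that signal through adapters with tyrosine activation motifs, opsonise with complement C1q, and kill and digest with an oxidase and lysosomal enzymes. In the prostate, loss of androgen makes luminal epithelial cells die and the gland regress, and macrophages are known to be among the cells that clear a regressing gland. The genes listed here are used as markers of that cell class, but several are also used by dendritic cells, neutrophils, mast cells or other leukocytes, lymphocytes among them.

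Promoter sequences of 23 of the 32 genes were found in the RefSeq table of build GRCm38.p6 (250 bases before to 50 after the transcript start). They were searched on both strands for 4 short motifs and for the androgen response element, whether or not the gene was measured. An exact ETS/PU.1 motif (GAGGAAGT) lay in the promoters of 3 of the 23 genes (C1qc, Cd53 and Ctss), against 3.69% of 27025 genes in the table. The AP-1 motif (TGANTCA) lay in those of 3 (Cd68, Cybb and Trem2), against 8.97%, and the interferon response core in those of 4 (Aif1, Ctss, Cybb and Ncf1), against 3.99%. The exact C/EBP motif (TTGCGCAA) and the exact androgen response element lay in none of the 23, against 0.207% and 0.0111% of all genes. Of the genes with a match, Cd68, Cybb and Ncf1 had no kept probe, and Cd53 and Ctss did not pass after castration under either treatment. The matches are thus not tied to the changes described below. A match is a run of letters and not a site in use, and no match says only that the exact letters are not in that window. The promoters of 3 genes that were higher after castration under both treatments are shown, 1 for each motif found among such genes, with the motif in capitals. C1qc encodes the C chain of complement C1q (chr4:136892865-136893164, minus strand), Trem2 a lipid-sensing receptor of macrophages and microglia (chr17:48346151-48346450, plus strand), and Aif1 the calcium- and actin-binding protein IBA1 (chr17:35176003-35176302, minus strand).
C1qc: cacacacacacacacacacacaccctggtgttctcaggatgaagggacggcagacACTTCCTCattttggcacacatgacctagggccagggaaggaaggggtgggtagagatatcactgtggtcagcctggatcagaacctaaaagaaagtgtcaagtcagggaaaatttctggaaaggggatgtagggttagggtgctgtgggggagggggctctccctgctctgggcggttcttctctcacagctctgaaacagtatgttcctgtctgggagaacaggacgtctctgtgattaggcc
Trem2: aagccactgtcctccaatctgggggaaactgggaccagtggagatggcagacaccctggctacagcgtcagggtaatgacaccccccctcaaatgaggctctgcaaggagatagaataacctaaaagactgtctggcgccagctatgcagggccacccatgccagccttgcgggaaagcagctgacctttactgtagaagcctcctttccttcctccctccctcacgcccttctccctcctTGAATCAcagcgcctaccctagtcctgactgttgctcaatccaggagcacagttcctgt
Aif1: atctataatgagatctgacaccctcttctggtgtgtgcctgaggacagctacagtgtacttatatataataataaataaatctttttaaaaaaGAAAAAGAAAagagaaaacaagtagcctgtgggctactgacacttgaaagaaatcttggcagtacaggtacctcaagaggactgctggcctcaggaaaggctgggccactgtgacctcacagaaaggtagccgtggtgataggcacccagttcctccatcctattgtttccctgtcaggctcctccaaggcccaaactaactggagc

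Some facts of the arrays bear on these genes. The 6 castrated arrays lie on 1 chip and the 6 intact arrays run with them on another. The effects of castration and of chip cannot be told apart, while genistein was compared within a chip. In the estradiol experiment 1 chip carried all 4 estradiol arrays together with vehicle arrays 1 and 2, and 2 more chips carried the remaining 3 vehicle arrays. Detected probes made up 42.3% to 47.0% of an array. In the genistein experiment their share was 44.98% to 46.37% on the castrated arrays and 42.33% to 44.91% on the intact arrays. Of the 25 kept genes 22 were detected on all 12 arrays of the genistein experiment, and of the 24 kept in the estradiol experiment 21 were detected on all 9 arrays. Probasin (Pbsn), the prostate secretory protein, marked the tissue and fell by 4.64 on the log2 scale after castration under vehicle (adjusted p = 3.5e-06). Castrated genistein arrays 1 and 3 stood apart in seminal vesicle transcripts, with a median deviation of the 5 measured genes from their own means over the 12 arrays of -3.91 and -5.61 against -0.38 on castrated genistein array 2. Intact genistein array 3 and vehicle arrays 1 and 4 of the estradiol experiment stood apart in the macrophage and myeloid genes themselves, as given below. They were singled out by these same genes, so leaving any of them out shifts the medians of these genes in a direction set in advance. Results that rest on the arrays named here are given with and without them, apart from the correlations within groups.

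Most of these genes were higher after castration. Under vehicle 20 of the 25 measured genes rose, none fell, and 5 (Clec7a, Cd163, Cd53, Ctss and Itgb2) did not pass the test, which was limma's moderated test with Benjamini-Hochberg adjustment over all 15406 genes. Of all genes, 11.1% were called higher in the same comparison (1713 higher and 1546 lower). With arrays scaled to their medians in place of quantiles the split was 2282 higher and 1052 lower, and 21 of the 25 rose. The median log2 change of the 25 was 0.95 (range -0.23 to 1.46), beside 0.04 over all genes. Without overlap between the 3 castrated and 3 intact arrays, 22 of the 25 were higher, against 21.6% of all genes. The plot of array values shows the castrated arrays above the mean of nearly every gene and 5 of the 6 intact arrays below it, while intact genistein array 3 was above the mean for 11 of the 25. In bulk RNA, more cells of a type, more RNA per cell and a larger share of the RNA as other transcripts fall cannot be told apart. The summed signal of the luminal and secretion list was 26120 to 26790 on castrated vehicle arrays and 96340 to 104700 on intact vehicle arrays. Its part in the result was not tested.

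**Figure D1:**
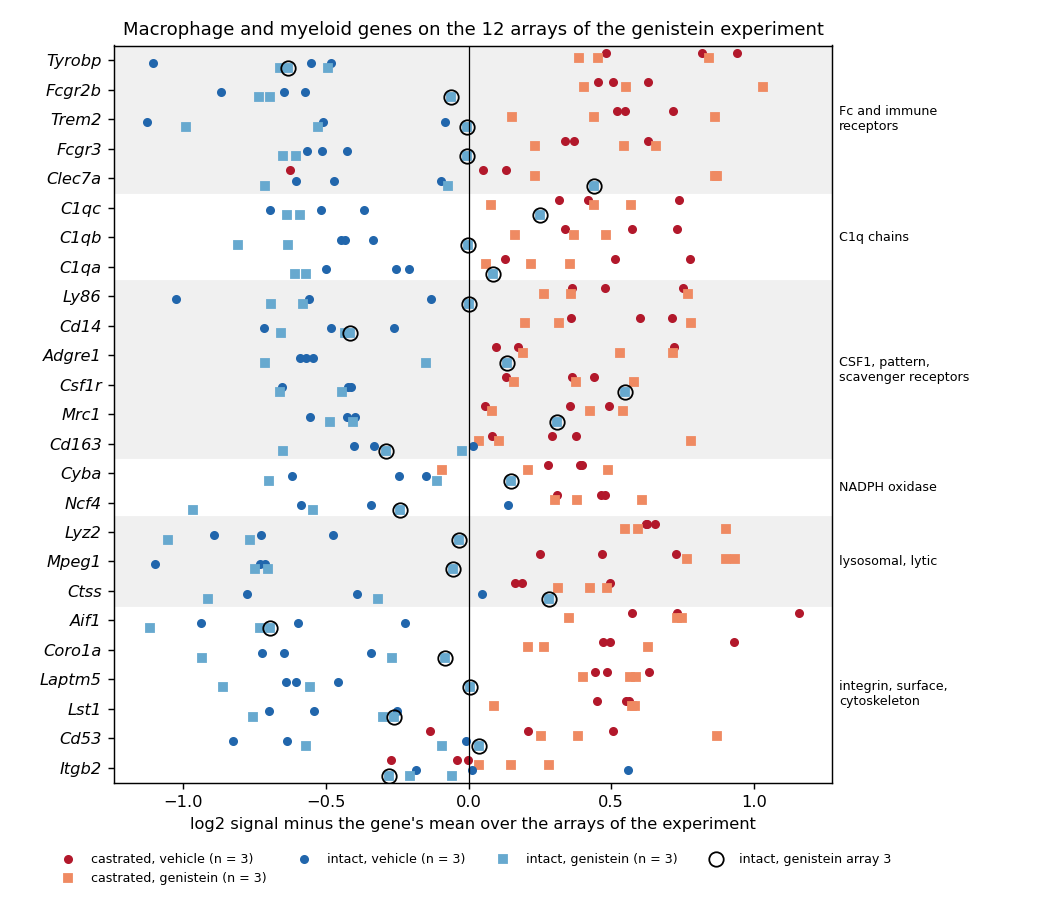
Normalized log2 signal of each of the 25 genes on each of the 12 arrays of the genistein experiment, as the difference from the gene's own mean (x axis), with genes grouped by role (y axis). Each point is 1 array, and castrated arrays (red and orange) lie to the right of intact arrays (blue) for most genes, while intact genistein array 3 (ringed) lies to the right of the other intact arrays for many.

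Among the Fc and immune receptors with their adapters, 4 of the 5 measured genes rose under vehicle. Tyrobp encodes DAP12, the adapter through which TREM2 and related receptors signal. Its log2 signal was 8.37, 7.91 and 8.25 on the castrated vehicle arrays and 6.32, 6.87 and 6.95 on the intact vehicle arrays. All 3 castrated arrays lay above all 3 intact arrays, with a log2 change of 1.46 (SE 0.19, 2.75-fold, adjusted p = 0.000351). Fcgr2b, the inhibitory Fc receptor for IgG, read 8.54, 8.42 and 8.36 after castration and 7.26, 7.33 and 7.04 in intact males. Here too the groups were clear of each other, with a log2 change of 1.22 (SE 0.20, 2.34-fold, adjusted p = 0.00145). Its other kept probe gave 1.52. Trem2 rose by 1.17 (SE 0.29, adjusted p = 0.0136) and Fcgr3, the low-affinity activating Fc receptor, by 0.95 (SE 0.18, adjusted p = 0.00324). Clec7a, the β-glucan receptor dectin-1, gave 0.24 and 0.48 on its probes and did not pass (adjusted p = 0.602 for the probe that stands for the gene), and it was detected on 8 of 12 arrays.

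All 3 chains of complement C1q, the recognition molecule of the classical pathway, rose under vehicle. C1qc read 10.58, 10.26 and 10.15 on castrated arrays and 9.32, 9.47 and 9.14 on intact arrays, a log2 change of 1.02 (SE 0.23, 2.02-fold, adjusted p = 0.00867). C1qb read 10.32, 9.93 and 10.17 against 9.15, 9.16 and 9.26, a log2 change of 0.95 (SE 0.19, 1.93-fold, adjusted p = 0.00472). C1qa read 8.81, 8.17 and 8.55 against 7.54, 7.83 and 7.78, a log2 change of 0.79 (SE 0.21, 1.73-fold, adjusted p = 0.018). Every castrated array was above every intact array for each chain. The C1qa call was lost without castrated vehicle array 1 (0.64, adjusted p = 0.08), castrated vehicle array 3 (0.77, adjusted p = 0.0551) or intact vehicle array 1 (0.70, adjusted p = 0.0617).

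Of the growth factor, pattern and scavenger receptors, 5 of the 6 measured genes rose. Ly86, which encodes MD-1, the partner of the Toll-like receptor homologue RP105, read 7.92, 7.53 and 7.64 against 6.61, 7.04 and 6.14, a log2 change of 1.10 (SE 0.24, 2.15-fold, adjusted p = 0.00793). Cd14, the coreceptor that hands endotoxin to TLR4, read 9.60, 9.49 and 9.25 against 8.17, 8.63 and 8.40, a log2 change of 1.04 (SE 0.17, 2.06-fold, adjusted p = 0.00169). For both genes the lowest castrated array was above the highest intact array. Adgre1, an adhesion receptor widely used as a surface marker of mouse macrophages, read 8.12, 7.50 and 7.58 against 6.81, 6.83 and 6.86, a log2 change of 0.90 (SE 0.22, 1.86-fold, adjusted p = 0.0149). The 3 intact values lay within a few hundredths of each other and castrated array 1 stood highest. Its other kept probes gave 0.93 and 0.14, and the probe at 0.14 did not pass (adjusted p = 0.55 in the fit over all kept probes). Without castrated vehicle array 1 its change was 0.70 (adjusted p = 0.0669).

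Csf1r, the receptor for the growth factors CSF1 and IL-34, read 8.71, 8.79 and 8.48 on castrated arrays against 7.92, 7.94 and 7.69 on intact arrays, a log2 change of 0.81 (SE 0.26, 1.75-fold, adjusted p = 0.0426). The arrays did not overlap. A further kept probe gave 0.83 and did not pass (adjusted p = 0.0589 in the fit over all kept probes). The Csf1r call was lost on leaving out any 1 of the 6 arrays, with changes of 0.73 to 0.90 and adjusted p of 0.0639 to 0.124. Mrc1, the mannose receptor, rose by 0.76 (adjusted p = 0.0219), a call lost without castrated vehicle array 1 (0.67, adjusted p = 0.0869), castrated vehicle array 3 (0.73, 0.0651), intact vehicle array 1 (0.71, 0.0637) or intact vehicle array 3 (0.78, 0.0541). Cd163, the haemoglobin scavenger receptor, gave 0.49 and did not pass (adjusted p = 0.13).

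Both measured subunits of the phagocyte NADPH oxidase, the enzyme that makes superoxide, rose as well. Cyba, the membrane subunit p22phox, read 10.64, 10.53 and 10.64 against 9.63, 10.10 and 10.00, a log2 change of 0.69 (SE 0.22, 1.62-fold, adjusted p = 0.0398). Ncf4, the cytosolic subunit p40phox, read 7.34, 7.17 and 7.33 against 6.53, 7.01 and 6.28, a log2 change of 0.68 (SE 0.21, 1.6-fold, adjusted p = 0.0361). Intact array 2 was the intact array nearest to the castrated ones for both. Each call was lost on leaving out any 1 array other than intact vehicle array 2, with changes of 0.55 to 0.74 and adjusted p of 0.0734 to 0.13 for Cyba, and 0.52 to 0.73 and 0.0617 to 0.135 for Ncf4. The catalytic subunit gene Cybb was detected on no array.

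The lysosomal and lytic genes held some of the larger changes. Lyz2, the lysozyme of phagocytes, read 12.28, 12.25 and 12.26 on castrated arrays and 10.74, 11.16 and 10.91 on intact arrays, a log2 change of 1.33 (SE 0.22, 2.51-fold, adjusted p = 0.00158). Mpeg1, the pore-forming perforin-2, read 9.46, 9.19 and 8.98 against 7.63, 8.00 and 8.02, a log2 change of 1.33 (SE 0.19, 2.51-fold, adjusted p = 0.000745). The castrated Lyz2 values were almost equal to each other and well clear of the highest intact value, and the Mpeg1 groups did not overlap either. The further Lyz2 probe gave 1.04. Ctss, the cysteine protease cathepsin S, gave 0.65 and did not pass (adjusted p = 0.107), with detection on 11 of 12 arrays.

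In the group of integrin, surface and cytoskeletal genes, 4 of the 6 measured genes rose. Aif1 read 8.66, 8.23 and 8.07 after castration and 6.56, 7.28 and 6.90 in intact males, a log2 change of 1.41 (SE 0.21, 2.65-fold, adjusted p = 0.000879). Coro1a, the leukocyte actin regulator coronin 1A, read 10.01, 9.55 and 9.57 against 8.35, 8.73 and 8.43, a log2 change of 1.20 (SE 0.22, 2.3-fold, adjusted p = 0.00283). Neither gene overlapped between the groups. The other Aif1 probe gave 1.09 and the other 3 Coro1a probes 1.11, 1.30 and 1.38. Laptm5, a lysosomal membrane protein of blood cells, rose by 1.09 (SE 0.18, adjusted p = 0.00174) and Lst1, a leukocyte-specific transcript, by 1.02 (SE 0.18, adjusted p = 0.00223). Cd53, a leukocyte tetraspanin, gave 0.68 and overlapped (adjusted p = 0.0763), though it passed without intact vehicle array 2 (0.92, adjusted p = 0.024). Itgb2, the shared β2 integrin chain, gave -0.23 (adjusted p = 0.373) with detection on 7 of 12 arrays. Its partner Itgam was detected on 2.

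Under genistein, castration was compared in 6 further arrays. Of the 25 genes 16 rose, none fell and 9 did not pass, with 11.2% of all genes called higher (1722 higher and 1679 lower). With arrays scaled to their medians the split was 1238 higher and 1681 lower, and 13 of the 25 rose. The median was 0.82 (range 0.34 to 1.46), beside 0.04 over all genes, and 19 of the 25 were higher without overlap, against 20.9% of all genes. All 16 were among the 20 that rose under vehicle. The 4 others (C1qa, Mrc1, Csf1r and Cyba) gave 0.58, 0.54, 0.56 and 0.42 with adjusted p of 0.0654, 0.0803, 0.143 and 0.187, and their difference between the 2 castration effects was tested and did not pass, as given with the genistein results. Without castrated genistein arrays 1 and 3, the pair low in seminal vesicle transcripts, 8 of the 25 rose, while the median of the 25 was 1.04 and calls over all genes fell from 3401 to 839 (341 higher and 498 lower). That fit leaves 1 castrated genistein array, which is assumed to vary like the arrays of the other groups.

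**Figure D2:**
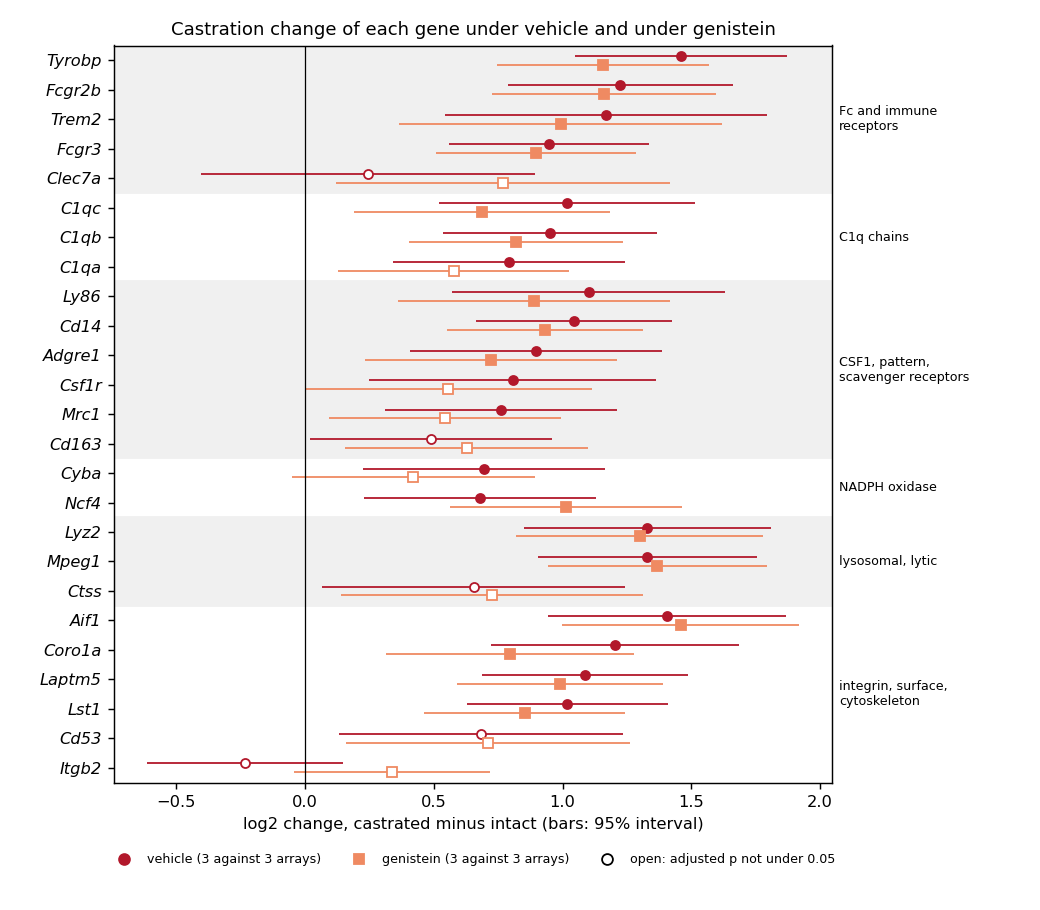
Log2 change from intact to castrated for each of the 25 genes under vehicle (circles) and under genistein (squares), with 95% intervals as bars and filled symbols for an adjusted p under 0.05. The changes ran from -0.23 to 1.46 under vehicle and from 0.34 to 1.46 under genistein.

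The genes with the lowest adjusted p under genistein were Mpeg1, Aif1, Tyrobp, Lyz2, Fcgr2b and Laptm5. Mpeg1 read 9.50, 9.63 and 9.66 on the castrated genistein arrays and 8.03, 7.98 and 8.67 on the intact genistein arrays, a log2 change of 1.37 (SE 0.19, 2.58-fold, adjusted p = 0.000613). Aif1 read 8.25, 8.23 and 7.85 against 6.77, 6.38 and 6.81, a log2 change of 1.46 (SE 0.21, 2.75-fold, adjusted p = 0.000697). Tyrobp read 7.88, 8.27 and 7.81 against 6.93, 6.77 and 6.79, a log2 change of 1.16 (SE 0.19, 2.23-fold, adjusted p = 0.00151). For these 3 genes every castrated array was above every intact one. Lyz2 read 12.18, 12.53 and 12.22 against 10.86, 10.58 and 11.60, a log2 change of 1.30 (SE 0.22, 2.46-fold, adjusted p = 0.00189). Fcgr2b read 8.31, 8.94 and 8.46 against 7.17, 7.21 and 7.84, a log2 change of 1.16 (SE 0.20, 2.23-fold, adjusted p = 0.00207). Laptm5 read 11.81, 11.97 and 12.00 against 10.85, 10.55 and 11.41, a log2 change of 0.99 (SE 0.18, 1.99-fold, adjusted p = 0.00306). In the last 3 the groups were also apart, and intact genistein array 3 was the highest intact array.

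The other 10 called members under genistein changed as follows. Ncf4 gave 1.01 (adjusted p = 0.00501), Trem2 0.99 (0.028), Cd14 0.93 (0.00329), Fcgr3 0.90 (0.00448), Ly86 0.89 (0.0219) and Lst1 0.85 (0.00586). C1qb gave 0.82 (0.0101), Coro1a 0.79 (0.0236), Adgre1 0.72 (0.0382) and C1qc 0.69 (0.0494), each value in parentheses being the adjusted p. C1qc read 9.92, 10.28 and 10.41 against 9.20, 9.25 and 10.09, so that its groups overlapped although it passed, and C1qa, which did not pass, read 8.10, 8.39 and 8.26 against 7.43, 7.47 and 8.12. Some of these calls rested on single arrays. Adgre1 and C1qc were not called without castrated genistein array 2 (0.60 and 0.65, adjusted p = 0.122 and 0.118) or 3 (0.70 and 0.59, 0.0974 and 0.15), or without intact genistein array 1 (0.77 and 0.53, 0.0639 and 0.158) or 2 (0.49 and 0.56, 0.143 and 0.165). Trem2 was not called without castrated genistein array 1 (1.02, adjusted p = 0.0669) or 2 (0.80, 0.0995), or intact genistein array 1 (0.98, 0.0651) or 2 (0.75, 0.111). Ly86 was not called without castrated genistein array 2 (0.74, adjusted p = 0.0794) or intact genistein array 1 (0.81, 0.067) or 2 (0.75, 0.0853), nor Coro1a without castrated genistein array 2 (0.66, 0.0843) or intact genistein array 2 (0.54, 0.0845). Cd163 (0.63, adjusted p = 0.0571), Cd53 (0.71, 0.0639), Ctss (0.73, 0.0747) and Clec7a (0.77, 0.0856) did not pass. Cd163 passed without castrated genistein array 2 (0.76, adjusted p = 0.0468) or intact genistein array 2 (0.78, 0.0459). Itgb2 was not detected on any intact genistein array and did not pass either (0.34, adjusted p = 0.191). Its measured means were 5.25 ± 0.12 and 4.91 ± 0.11 (SD, n = 3 each). With the intact arrays set no lower than their lowest detected signal, the means were 1.21-fold apart, a value without an error. The 3 Adgre1 probes gave 0.72, 0.46 and 0.47, the other Aif1 probe 0.70 and the other Csf1r probe 0.69. The other Coro1a probes gave 1.29, 0.64 and 0.88, and those of Fcgr2b, Lyz2 and Clec7a 1.11, 1.21 and 0.75. In the fit over all kept probes, the Adgre1 probe at 0.47 did not pass (adjusted p = 0.191). Nor did the other probes of Aif1 (0.0875), Csf1r (0.108) and Clec7a (0.0885).

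Intact genistein array 3 was higher in these genes than the other intact arrays. The median deviation of the 25 genes from their own means was -0.59, -0.39 and -0.57 on the intact vehicle arrays and -0.56, -0.69 and -0.01 on the intact genistein arrays. On the castrated arrays it was 0.63, 0.37 and 0.40 under vehicle and 0.28, 0.63 and 0.38 under genistein. On intact genistein array 3, 11 of the 25 genes were above their own mean, against 0 to 2 on the other 5 intact arrays. Csf1r read 7.69, 7.90 and 8.90 on the 3 intact genistein arrays, the third at the level of the castrated genistein arrays (8.51, 8.93 and 8.72), and Mrc1 read 9.13, 9.04 and 9.84. Not all genes followed, since Tyrobp and Aif1 on that array were within the range of the other intact arrays. The same array had median deviations of 1.47 for the 3 measured red blood cell genes and 0.70 for the 2 measured monocyte genes, above all other intact arrays. It was also the highest intact array for the smooth muscle (0.57), neutrophil (0.18), endothelial (0.06), fibroblast (0.04) and dendritic cell (-0.02) lists. For the luminal (0.17) and basal (-0.41) lists it was the lowest intact array. In the mast cell, T and NK cell, B cell, adipocyte, urothelial, skeletal muscle and seminal vesicle lists it was not the highest. Their part in the result was not tested. Without it 21 of the 25 genes rose after castration under genistein, with C1qa (0.80, adjusted p = 0.0116), Csf1r (0.92, 0.00291), Mrc1 (0.80, 0.00753), Ctss (1.02, 0.0126) and Clec7a (1.05, 0.0279) added. The median over all genes in that fit was 0.04, and the share of all genes called in it is not given here. Since the array was picked for being high in these same genes, leaving it out raises their changes by construction. The added calls are therefore no separate evidence.

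Genes of the same pathways outside the set were described from lists. Of 24 measured other macrophage genes (27 listed), 16 rose and none fell after castration under vehicle, with a median of 0.79. Among them were Hmox1, the haem-degrading enzyme (1.10, adjusted p = 0.00172), Ms4a6d, a tetraspan membrane protein (1.12, 0.00212), Gas6, the ligand of TAM receptors (0.76, 0.00251), and Sirpa, the receptor for CD47 (0.96, 0.0029). Under genistein 14 rose and 1 fell, with a median of 0.63. Apoe, a lipid carrier, gave 0.63 (adjusted p = 0.00646), Axl, a TAM receptor, 0.57 (0.00681), Ms4a6d 0.90 (0.00682) and Cd84, a SLAM family receptor, 0.91 (0.0085). The gene that fell was Mertk, the receptor for Gas6 in the uptake of dying cells, at -0.55 (adjusted p = 0.0254) and at -0.31 under vehicle (0.181), named after its values were seen.

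**Figure D3:**
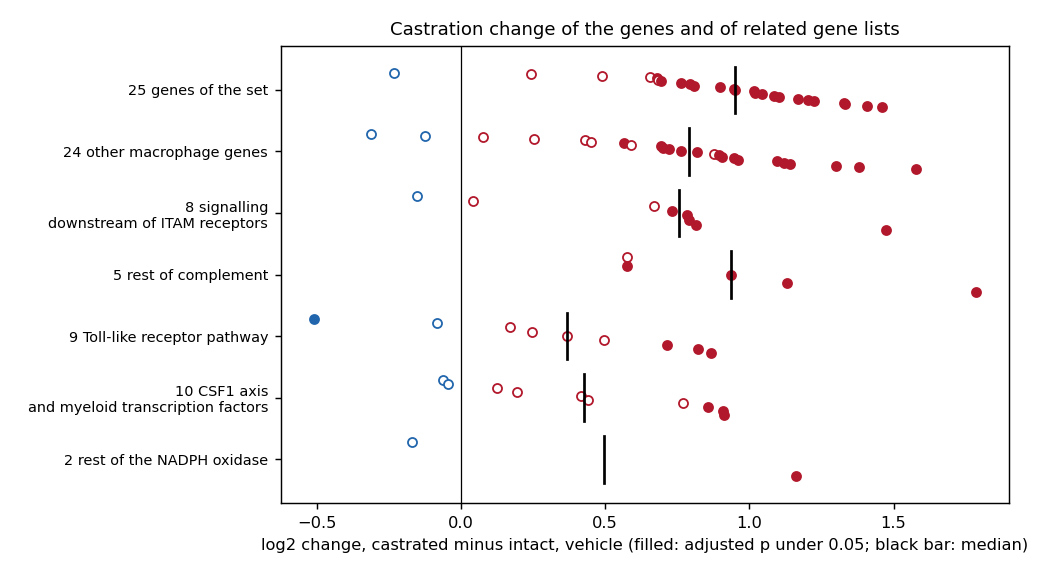
Log2 change from intact to castrated under vehicle (x axis) for the 25 genes and for 6 related lists (y axis), each point being 1 gene, filled where the adjusted p was under 0.05, with the median as a bar. The medians of the lists ran from 0.37 for the Toll-like receptor pathway to 0.94 for the rest of complement.

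Kinases and adapters downstream of the Fc and DAP12 receptors rose in 5 of 8 measured cases under vehicle (median 0.76). Those with the lowest adjusted p were Pik3ap1, an adapter to PI 3-kinase (1.47, adjusted p = 0.000328), the kinase Btk (0.79, 0.000822), the phospholipase Plcg2 (0.73, 0.00147) and the exchange factor Vav1 (0.82, 0.00799). Under genistein 4 of 8 rose (median 0.54), with Btk at 1.13 (7.9e-05), Plcg2 at 0.62 (0.00393), Pik3ap1 at 0.74 (0.0154) and Vav1 at 0.69 (0.0178). The same 4 genes were thus called in both. In the rest of complement 4 of 5 measured genes rose under each treatment (medians 0.94 and 0.95). Factor B (Cfb) gave 1.78 and 1.36, C2 0.94 and 0.95, C4b 1.13 and 1.09, and properdin (Cfp) 0.58 and 0.71, under vehicle and genistein in that order, with adjusted p of 0.00204 and 0.00876, 0.00455 and 0.00424, 0.0199 and 0.0225, and 0.0422 and 0.0164.

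The Toll-like receptor list moved in both directions. Of 9 measured genes 3 rose and 1 fell under vehicle (median 0.37), namely Tlr6 (0.82, adjusted p = 0.000948), Tlr4 (0.87, 0.00371) and Tlr2 (0.71, 0.0147), and the adapter Tirap (-0.51, 0.00737). Under genistein 2 rose and 1 fell (median 0.30), with Tlr6 at 0.85 (0.000779), Tlr4 at 0.58 (0.0275) and Tirap at -0.52 (0.0066). Of 10 measured genes of the CSF1 axis and the myeloid transcription factors, 3 rose under vehicle (median 0.43): Csf2ra, a GM-CSF receptor chain (0.86, 0.00356), and the factors Runx1 (0.91, 0.00378) and Cebpb (0.91, 0.0296). Under genistein 5 rose (median 0.43), among them Runx1 (0.82, 0.00659), Cebpb (1.09, 0.0127), Cebpa (1.13, 0.0127) and the ligand Csf1 (0.56, 0.0425). Csf1 gave 0.13 under vehicle (adjusted p = 0.659), and its difference between the treatments did not pass (0.44, adjusted p = 0.743). Of 2 further oxidase genes, Rac2 rose under vehicle (1.16, adjusted p = 0.00936) and neither was called under genistein.

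Markers of other cells moved with castration as well, and their part in the result was not tested. Under vehicle 5 of 8 measured mast cell genes rose (median 1.07), with Cma1 at 1.33 (adjusted p = 0.00306), Kit at 1.23 (0.00324), Cpa3 at 1.12 (0.0082) and Mcpt4 at 1.27 (0.00931). Their summed signal (linear normalized units) was 1981 to 2201 on the castrated vehicle arrays and 955.8 to 1085 on the intact vehicle arrays. Of 6 T and NK cell genes 4 rose (median 0.86; Cd3g 1.16, Cd3e 1.48, Cd3d 0.91 and Klrd1 0.80), with sums of 476.3 to 584 against 257.3 to 277.3. Cd4, Cd8a, Lck, Cd5, Ncr1 and Trbc1 gave no kept probe. The single kept B cell gene of 8, Cd79b, rose by 1.11, and Ms4a1 and Cd79a gave no kept probe.

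Dendritic cell genes rose in 3 of 6 measured cases (median 0.60; Batf3 1.06, Siglech 0.66 and Cd209a 0.79), neutrophil genes in 1 of 4 (S100a8, adjusted p = 0.0249) and monocyte genes in 1 of 2 (F13a1 0.86). The neutrophil sum overlapped between groups (4484 to 7741 castrated, 3335 to 18340 intact). Ly6g, Mpo and Elane of neutrophils and Ccr2 and Ly6c2 of monocytes gave no kept probe. Of 10 fibroblast genes 6 rose (median 0.59; Lum 2.55, Fbln1 1.22, Dpt 0.90 and Dcn 0.57), with sums of 36240 to 44890 against 21580 to 23940, and of 10 endothelial genes 3 rose (Cldn5 1.28, Esam 0.82 and Pecam1 0.82). Of 10 luminal and secretion genes 7 fell and 1 rose, with Pbsn, Msmb, Spink1 and Azgp1 at -4.64, -2.97, -5.43 and -3.75, and their sum was 26120 to 26790 castrated against 96340 to 104700 intact. Of 6 urothelial genes 2 rose and 1 fell (Upk3b 1.24, Upk1b 0.85 and Upk1a -0.51), and none of 7 basal epithelial, 7 skeletal muscle, 6 adipocyte or 3 red blood cell genes was called. Smooth muscle genes fell in 3 of 9 cases (Actg2 -1.39, Tagln -1.11 and Cnn1 -0.91).

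**Figure D4:**
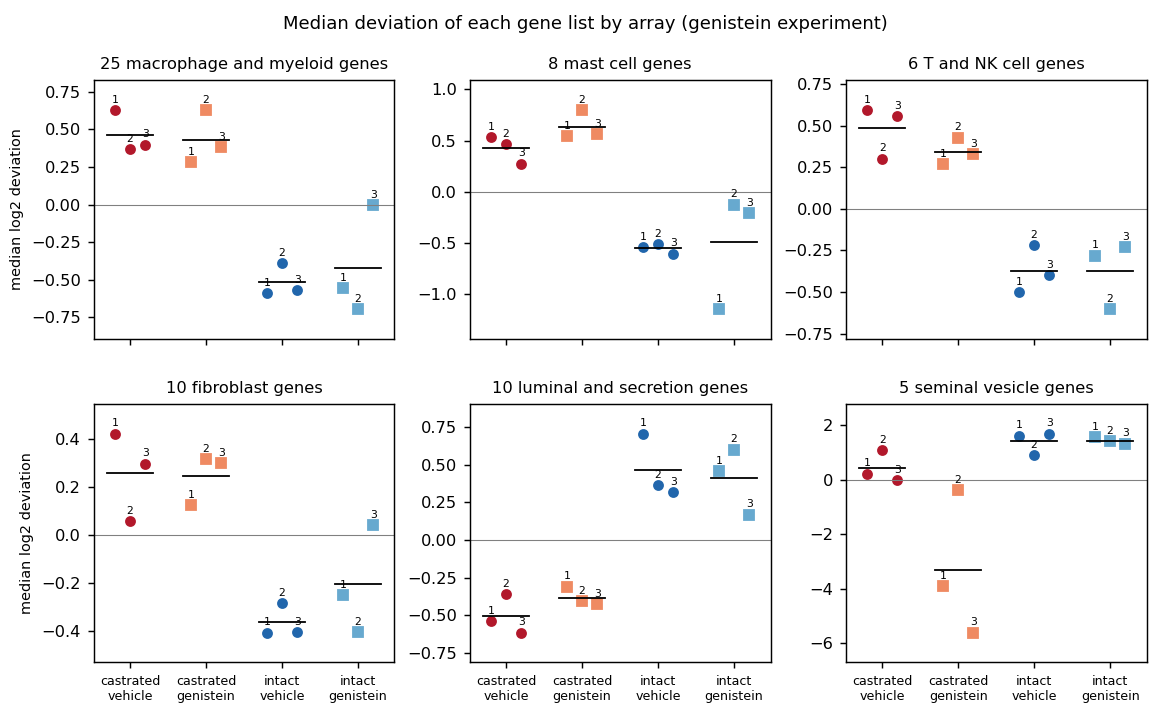
Median deviation of the genes of each list from their own means (y axis, log2 units) on each of the 12 arrays of the genistein experiment (points, numbered by replicate) with the group mean as a line. The macrophage and myeloid, mast cell, T and NK cell lists were higher on castrated arrays and the luminal list lower, while the seminal vesicle list was at -3.91 and -5.61 on castrated genistein arrays 1 and 3.

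The same lists under genistein gave 6 of 8 mast cell genes higher (median 1.18), 5 of 6 T and NK cell genes (0.78), 0 of 6 dendritic cell genes (0.30), 3 of 10 fibroblast genes (0.27), 6 of 10 luminal genes lower (-0.72) and 7 of 9 smooth muscle genes lower (-0.71). The single B cell gene Cd79b did not pass (-0.00379 against 1.11 under vehicle, a difference of -1.11 with adjusted p = 0.557). Cma1 gave 1.36, Tpsb2 1.32, Cd3e 1.35, Cd3d 0.82, Lum 2.16, Pbsn -4.31 and Tagln -1.57. The summed mast cell signal was 2105 to 2547 castrated against 857.7 to 1280 intact. Of 6 urothelial genes 3 rose and 1 fell (median 1.24), with sums of 7294 to 9829 castrated against 4648 to 6595 intact. Further, 2 of 10 endothelial genes rose (Cldn5 1.23 and Esam 0.73), 3 of 6 adipocyte genes rose (Lipe 1.18, Plin1 1.45 and Adipoq 1.34), S100a8 of neutrophils rose (1.32), and Plac8 of monocytes (-1.76) and 4 of 5 seminal vesicle genes fell. Their part in the result was not tested.

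None of the 25 genes was called for genistein in castrated males. Of all genes 0% were called, and 1 of the 25 had an unadjusted p under 0.05, against 9.47% of all genes. The median of the 25 was 0.01 and the range -0.27 to 0.80. Clec7a read 6.09, 6.09 and 5.46 with genistein and 4.60, 5.28 and 5.36 with vehicle. This was a log2 change of 0.80 (95% interval 0.15 to 1.45, limma's unadjusted p = 0.0196, adjusted p = 0.431). Its arrays did not overlap, but its other probe gave 0.18. Mpeg1 gave 0.38 (-0.04 to 0.81, adjusted p = 0.573) and Itgb2 0.26 (-0.12 to 0.64, adjusted p = 0.681). The 3 C1q chains gave -0.26, -0.21 and -0.13, Csf1r 0.06 (-0.50 to 0.62) and Adgre1 0.15 (-0.34 to 0.64). Outside Clec7a, the bounds of the 95% intervals reached down to -0.75 (Coro1a) and up to 0.86 (Cd53), so changes of that size are within the error.

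Nor was any of the 25 called for genistein in intact males. There 0.00649% of all genes were called, which is 1 gene, and none of the 25 had an unadjusted p under 0.05. The median of the 25 was 0.10 (range -0.32 to 0.35). Mpeg1 read 8.03, 7.98 and 8.67 with genistein and 7.63, 8.00 and 8.02 with vehicle, a change of 0.35 (-0.08 to 0.77, adjusted p = 0.729). Array 3 made the upper end of that group. Ncf4 gave -0.32 (-0.77 to 0.13, adjusted p = 0.757). Itgb2 was not detected with genistein and gave -0.31 (-0.69 to 0.07, adjusted p = 0.73), an interval that includes no change. Its measured means were 4.91 ± 0.11 and 5.22 ± 0.38 (SD, n = 3 each). With the genistein arrays set no lower than their lowest detected signal, the means were 1.18-fold apart, a value without an error. The groups overlapped, and intact vehicle array 3 was highest at 5.65. Csf1r gave 0.31 (-0.25 to 0.87), Adgre1 0.33 (-0.16 to 0.81) and C1qa -0.04 (-0.49 to 0.41). Without array 3 the median of the 25 was -0.07.

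The difference between the genistein effects with and without testes is the same quantity as the difference between the castration effects with and without genistein, and it was tested as an interaction. It was called for 0% of all genes and for none of the 25, with 1 of the 25 at an unadjusted p under 0.05 and a median of -0.11. Itgb2 gave 0.57 (0.03 to 1.11, adjusted p = 0.668), Coro1a -0.41 (-1.09 to 0.27, adjusted p = 0.815) and Clec7a 0.53 (-0.39 to 1.44, adjusted p = 0.818). For the 4 genes called under vehicle only, the interaction was -0.22 (C1qa), -0.22 (Mrc1), -0.25 (Csf1r) and -0.27 (Cyba), with adjusted p of 0.906, 0.905, 0.912 and 0.882. The genistein comparisons, the castration comparisons and the interaction use the same 12 arrays, so their values are not independent of each other.

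None of the 24 measured genes was called for estradiol in intact males. Of all 15088 genes 0% were called, and 1 of the 24 had an unadjusted p under 0.05, against 6.92% of all genes. The median of the 24 was 0.06 (range -0.43 to 0.49). Ly86 read 7.09, 7.46, 7.39 and 7.37 with estradiol and 6.05, 7.02, 6.85, 7.05 and 7.20 with vehicle. This was a change of 0.49 (0.00 to 0.98, limma's unadjusted p = 0.0485, adjusted p = 0.717). The groups overlapped, and vehicle array 1 was lowest. Aif1 read 7.34, 7.36, 7.66 and 7.39 against 6.51, 7.28, 7.09, 7.57 and 7.21, a change of 0.30 (-0.13 to 0.73, adjusted p = 0.824). Mpeg1 read 7.53, 7.91, 8.11 and 7.90 against 7.80, 8.00, 8.18, 8.63 and 8.31, a change of -0.32 (-0.73 to 0.08, adjusted p = 0.783). These groups overlapped too. Csf1r gave 0.01 (-0.39 to 0.40), C1qa 0.11 (-0.46 to 0.69) and Adgre1, through another probe than in the genistein experiment, -0.19 (-0.60 to 0.21). Its further probe gave -0.01, and the further probes of Aif1, Coro1a, Csf1r, Fcgr2b and Lyz2 lay between -0.55 and 0.10.

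The vehicle arrays of the estradiol experiment spread more widely in these genes than the estradiol arrays. Their median deviation was -0.58, -0.03, 0.00, 0.46 and 0.15 on vehicle arrays 1 to 5 and 0.04, 0.02, 0.14 and -0.06 on the estradiol arrays. On vehicle array 1, 2 of the 24 genes (Clec7a and Cd53) were above their own mean, and on vehicle array 4, 23 of the 24. Tyrobp read 5.36, 7.54, 8.26, 8.18 and 7.64 and Cyba 8.90, 10.77, 10.72, 11.15 and 10.80 on the 5 vehicle arrays, with array 1 far below the rest for both. Over all kept genes, array 1 correlated least with its group (mean r of 0.956, against 0.973 to 0.980), and its lists of skeletal muscle (-0.90), adipocyte (-0.81), mast cell (-0.70) and urothelial genes (-0.70) were low and its seminal vesicle genes high (0.80). Skeletal muscle genes were as low on estradiol array 1 (-0.92). Array 4 had 1.80 for the 3 measured red blood cell genes, 0.90 for mast cells and 0.84 for neutrophil genes. Their part in the result was not tested. Without array 1 the estradiol median of the 24 was -0.11, and without array 4 it was 0.21, with no gene called in either. On the chip that holds all 4 estradiol arrays and vehicle arrays 1 and 2 the median was 0.33, with no gene called.

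**Figure D5:**
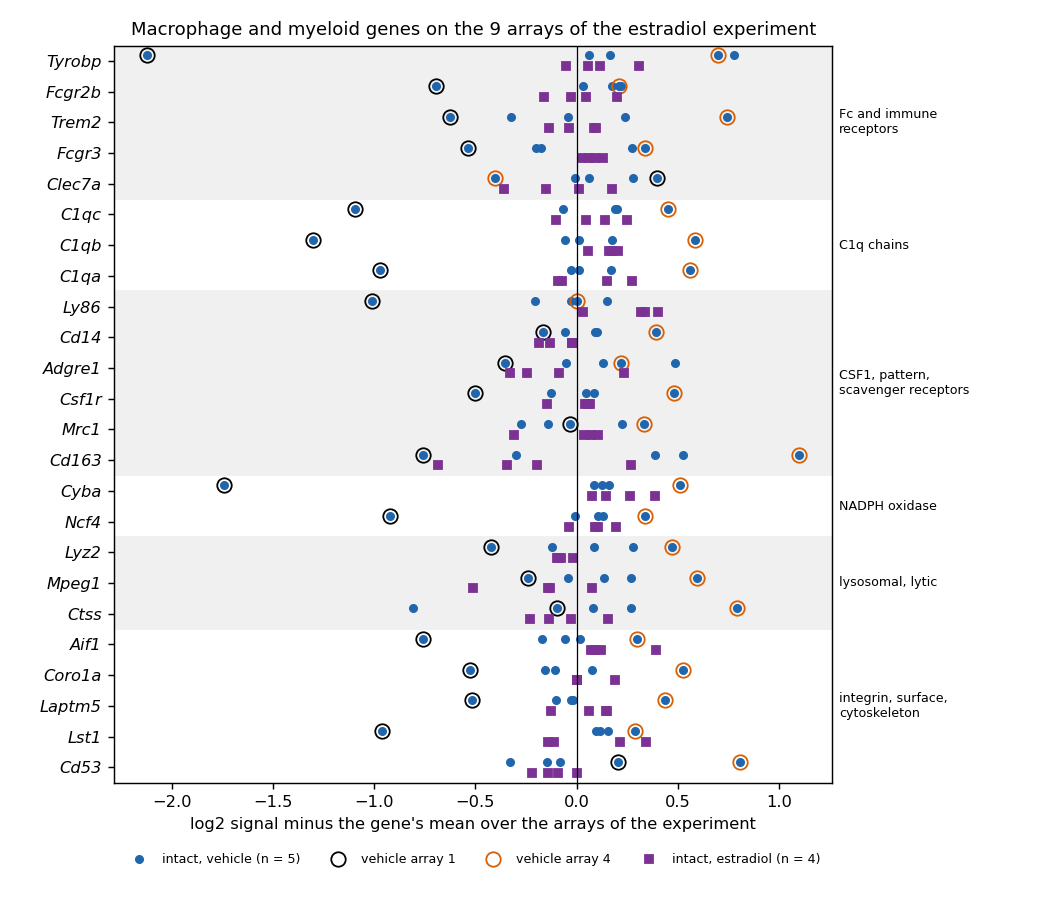
Normalized log2 signal of each of the 24 genes on each of the 9 arrays of the estradiol experiment, as the difference from the gene's own mean (x axis), with genes grouped by role (y axis) and vehicle arrays 1 (black ring) and 4 (orange ring) marked. Vehicle array 1 lies far to the left for many genes and vehicle array 4 to the right of the other arrays for most.

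Genistein and estradiol differed in dose, duration, solvent and experiment, and the values are placed side by side without a comparison. In intact males the medians over the measured genes were 0.10 for genistein (25 genes) and 0.06 for estradiol (24 genes). Lyz2 gave 0.08 and -0.13, Cd14 -0.01 and -0.16, Tyrobp 0.12 and 0.19, and Mpeg1 0.35 and -0.32, for genistein and estradiol in that order, none of them past the test.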

How the data were processed

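Prostate RNA was hybridised to Illumina mouse bead arrays (12 with genistein or its vehicle, 9 with estradiol or its vehicle). The authors deposited non-normalized tables of 45259 probes. Per the file headers, each array has a column of average intensity and a column of detection p-values in them. Intensities were corrected for background with the detection p-values, quantile normalized and put on a log2 scale with limma's neqc (limma 3.58.1, R 4.3.3, offset 16), within each experiment, since the tables were normalized separately. The log2 change is thus on a scale with an offset and understates changes of dim genes. Probes detected (p under 0.05) on at least 3 arrays were kept, and the kept probe with the highest mean signal stood for its gene. Probes were named through the platform annotation (34872 with 1 symbol, 18 with several, 10369 with none). Groups were taken from the labels and compared with limma's lmFit and eBayes over all genes, with Benjamini-Hochberg adjustment and a threshold of 0.05. The number of arrays limits the precision. The authors' processed table of the same arrays served as an alternative. The code was tested on simulated data.

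The members, related lists, cell lists and tests were chosen with earlier results of these data known. By a rule set with them, per-array values are given for the 2 called members with the largest change in each role group, for up to 6 called members by adjusted p, and for Csf1r, C1qa and Adgre1. Without calls the 3 members of lowest p were named, and up to 4 called genes of each other list. Same-numbered arrays were not treated as pairs. The correlations of their deviations ran from -0.28 to 0.34. Arrays of different numbers were not set beside them, so this cannot exclude pairing.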

Additional observations from a re-analysis of the deposited data

Results flagged for a closer look

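The 24 members and their median deviation were each examined in the groups of 4 and of 5 arrays, which makes 50 sets of values. In 9 of the 50 (18%) an array's gap to its neighbour was large for the range of its group. Chance gives about 1 in 20 for a single set. The sets share the same arrays and the genes vary together, so the count cannot be read against that share. Groups of 3 were not tested, so all 9 lie in the estradiol experiment. Vehicle array 1 was the low array in 5 of them. Its log2 signal was 5.36 for Tyrobp (next lowest 7.54), 8.90 for Cyba (10.72), 6.98 for Fcgr2b (7.71), 6.62 for Lst1 (7.68) and 6.10 for Ncf4 (7.02). In the estradiol group Aif1 was highest on array 3 at 7.66 (next 7.39) and Coro1a on array 1 at 9.58 (next 9.39). Csf1r was lowest on array 4 at 8.47 (next 8.66), as was Mrc1 at 10.10 (next 10.45).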

How the results depend on the processing

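Under vehicle 14 of the 20 calls after castration held without any single array and under every alternative, and under genistein 11 of 16 held without any single array and 8 under every alternative. Leaving out single arrays gave 14 to 20 members called under vehicle and 12 to 21 under genistein, with medians of 0.86 to 1.01 and 0.72 to 1.02, and 0 in the other comparisons, whose medians ran from -0.06 to 0.08 (genistein, castrated), -0.07 to 0.29 (genistein, intact), -0.29 to 0.12 (the interaction) and -0.11 to 0.21 (estradiol). With no filter on dim probes the median under vehicle was 0.81. Without castrated genistein arrays 1 and 3, 8 members were called under genistein with a median of 1.04, calls over all genes were 839 in place of 3401, and the genistein median in castrated males was 0.19. With the replicate number as a block, 17 members were called under vehicle, 14 under genistein and 0 elsewhere. Whether the numbers pair the samples is not known. Scaling to the array median moved the median of all genes by 0.11 (genistein, intact), -0.15 (interaction) and 0.15 (estradiol). No direction of a called member reversed. Dim members (Clec7a, Itgb2, Ctss and Cd53) are limited by signal over background.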

Other observations

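The macrophage and myeloid genes varied together within groups. Over all pairs of measured members the median correlation of deviations from the group means was 0.56 in the genistein experiment (300 pairs, 12 arrays, 259 above 0) and 0.74 in the estradiol experiment (276 pairs, 9 arrays, 249 above 0). The pairs share arrays and their normalization, and no test was made. Both values include the arrays that stood apart in these same genes, namely intact genistein array 3 and estradiol-experiment vehicle arrays 1 and 4. Neither value was computed without those arrays, so how far the correlations rest on them was not tested. No such value was computed for other genes or lists, so the shared variation is not shown to be particular to this set.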
